A study of Lactuca sativa with 24 samples.

Results

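The genes described here were read in leaves of both lettuce varieties and stood higher in Luna bionda than in Falstaff. There were 40 of them among the 31499 genes of the joined table. A gene was taken when its mean over 7 Falstaff libraries reached 0.5 CPM (its share of all reads in genes, scaled to 1e6 reads), its mean over 11 Luna bionda libraries was at least 4 times that, and its lowest Luna bionda value lay above its highest Falstaff value. The contrast of the varieties in these 18 libraries chose the genes, so that contrast is given below as values, with no test.

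Leaves of 2 wild-type varieties of Lactuca sativa were compared. In Luna bionda the groups were day 0, day 6 under visible light, day 6 with UVB for 2.5 h per day and day 6 with UVB for 7.5 h per day. In Falstaff the groups were day 0, day 6 under visible light, day 6 with UVB for 2.5 h per day and day 6 with UVA for 7.5 h per day. UV was given at 0.4 W per square metre on top of visible light from the same LED lamp, and each group held 3 libraries. Luna bionda had no UVA group, Falstaff had no group with UVB for 7.5 h, and the labels do not say if replicate libraries were made from different plants. A p-value here therefore speaks only of spread among libraries, part of which may be technical.

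Lettuce is self-pollinating, and its varieties are inbred lines that differ in leaf form, colour and sequence. A transcript can differ in level between such lines in every condition, or it can differ in how it answers a treatment. Plants, as worked out in Arabidopsis, sense UVB through the photoreceptor UVR8, which acts on the COP1 and HY5 regulators of flavonoid and photoprotective genes, and sense UVA mainly through cryptochromes and phototropins. Long non-coding RNAs (lncRNAs) are transcripts without a long reading frame, many of them at low level, and in plants some of them act in cis on a neighbouring gene.

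All 40 genes carry a locus identifier as their symbol in the RefSeq table of assembly Lsat_Salinas_v11, with no product name, so no role is given to any of them. RefSeq lists 28 as protein-coding and 12 as lncRNA, which is 30.0% lncRNA. Among the 21990 genes with a mean of at least 0.5 CPM in Falstaff, 8.58% were lncRNA and 90.6% protein-coding. Among the 110 genes picked by the mirrored rule, expressed in both varieties and higher in Falstaff, 26 were lncRNA (23.6%), a larger share than among the expressed genes in both sets. This share was not tested.

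The libraries differed in depth, content and batch tag. The 18 libraries used by the rule held 12072410 to 43276819 reads in genes, and the other 6 held 464282 to 1036697 reads. These shallow libraries, 1 of Luna bionda and 5 of Falstaff, also differed in content: the plastid gene psbA was at 39.1 CPM at most in a deep library and at 28431 CPM at least in a shallow one, and rbcL was at 0 in every deep library and at 64.6 CPM or more in every shallow one. Of the batch tags in the labels, the 6 shallow libraries carry tags of the lower of 2 number series, as do 4 deep Luna bionda libraries (all 3 of UVB for 2.5 h, and day 0 replicate 2), whereas all other deep libraries carry tags of the upper series. The series were told by the first 3 digits of a tag. Within the upper series both deep Falstaff libraries of UVB for 2.5 h carry lower numbers than the rest. Luna bionda UVB 2.5 h replicates 2 and 3 stood apart from their variety: across all genes their Spearman correlations with Falstaff visible light replicate 1 were 0.890 and 0.914, against means of 0.809 and 0.857 with the Luna bionda libraries of day 0 and visible light. For UVB 2.5 h replicate 1 these values were 0.836 and 0.916. Replicates 2 and 3 and the Falstaff library they resembled are called below the 3 libraries that stand apart. The likeness of that Falstaff library to the others of its variety is not given here. Groups follow the sample labels, which the names of the deposited tables contradict for the conditions but not for the variety of a library. The check against leaf genes was limited to these plastid genes, since nuclear leaf markers could not be recognised without product names.

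The 40 genes spanned 3 orders of level. Their Luna bionda means lay between 2.85 and 4512 CPM with a median of 13.1 CPM, and their Falstaff means between 0.506 and 904 CPM with a median of 1.31 CPM. In Luna bionda 13 genes averaged under 10 CPM and 26 between 10 and 100 CPM, which leaves LOC111902826 alone above that. In Falstaff 33 of the 40 averaged under 3 CPM and 13 under 1 CPM, so that most of the set was read weakly there. The ratio of the means, Luna bionda over Falstaff, had a median of 8.79 and lay between 4.02 and 35.9, with 17 genes at 4 to 8, 17 at 8 to 16 and 6 at 16 or more. Without LOC111902826, the summed level of the other 39 genes was 624 to 806 CPM in the 11 deep Luna bionda libraries, against 68.9 to 87.5 CPM in the 7 deep Falstaff libraries. In leaf tissue, fewer cells of a type that makes a transcript and less of that transcript per cell cannot be told apart.

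The rule was passed by 40 of the 21990 genes, or 0.182%. The demand that the varieties do not overlap was met by 57 of these genes (0.259%), and a mean at least 4 times higher in Luna bionda by 171 (0.778%). Overlap between single libraries thus removed 131 genes with a high enough ratio, and the ratio removed 17 genes whose varieties did not overlap.

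**Figure D1:**
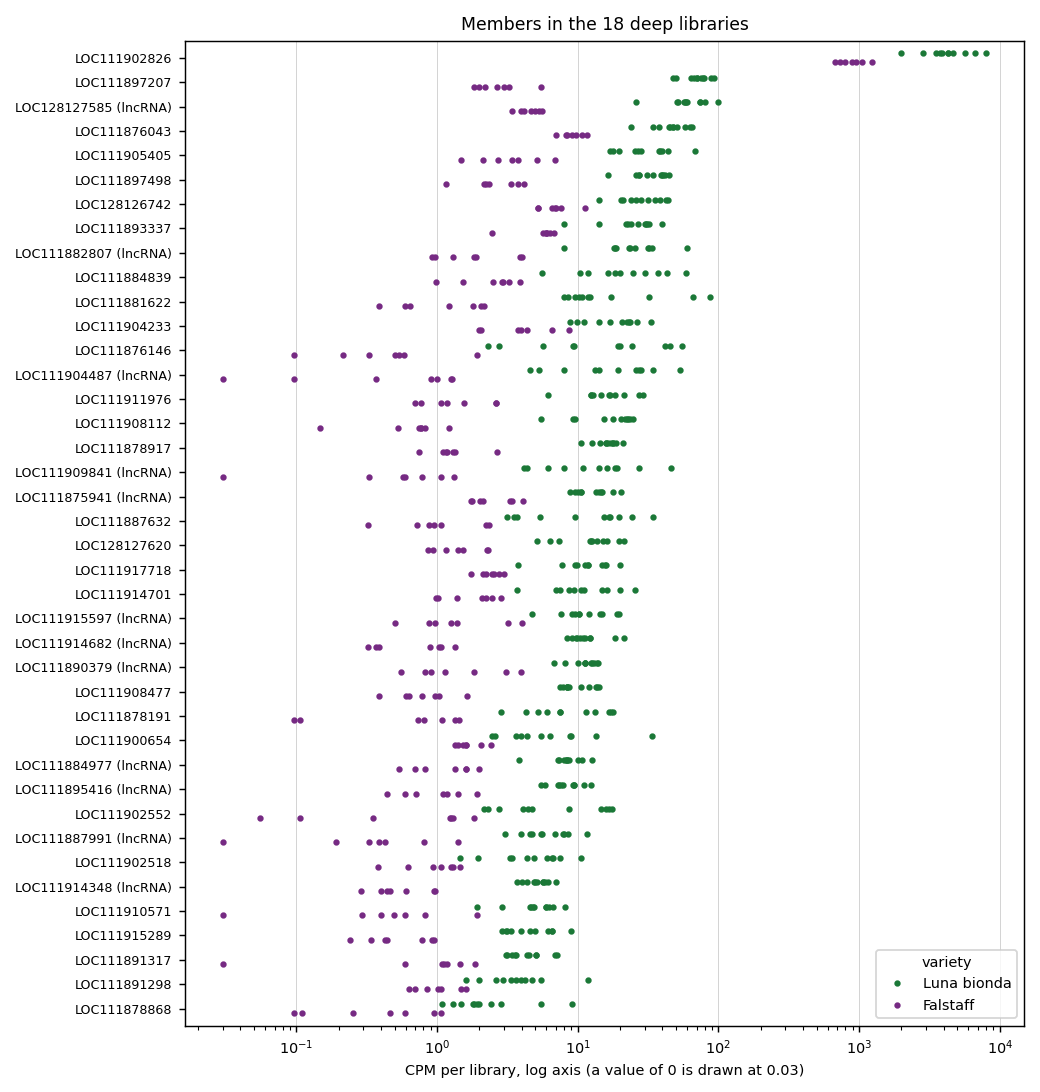
Level of each of the 40 genes in the 11 deep Luna bionda libraries (green, upper row of points of each gene) and the 7 deep Falstaff libraries (purple, lower row), in CPM on a log axis, with genes ordered by mean level and a value of 0 drawn at 0.03. The rule fixes that the point clouds of a gene do not meet; the gap between the lowest green and the highest purple point had a median ratio of 2 and ran between 1.01 and 8.7.

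LOC111902826, protein-coding, was by far the most abundant of the set. It read 1993 CPM at the lowest, 4261 at the median and 8025 at the highest in Luna bionda, against 674, 891 and 1232 CPM in Falstaff. Both varieties expressed it strongly, and its ratio of means, 4.99, was among the smaller ones. The mean was 4512 ± 1717 CPM in Luna bionda (SD, n = 11) and 904 ± 195 CPM in Falstaff (SD, n = 7).

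LOC111897207, protein-coding, showed the widest gap between the varieties. Its values were 48, 70.7 and 92.9 CPM (lowest, median, highest) in Luna bionda, against 1.84, 2.68 and 5.51 CPM in Falstaff. The lowest Luna bionda library was 8.7 times the highest Falstaff library, and the ratio of means was 24.4. It was also one of the steadier genes within Luna bionda, with a coefficient of variation (CV) of 19.8% over the 11 libraries.

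LOC128127585 was the most abundant lncRNA of the set. It read 26.0, 59.2 and 99.6 CPM in Luna bionda, against 3.41, 4.66 and 5.56 CPM in Falstaff, a ratio of means of 13.7. Its lowest Luna bionda value, in visible light replicate 1, still lay 4.67 times above its highest Falstaff value. The lncRNA LOC111882807 reached 8.01, 23.5 and 59.5 CPM in Luna bionda, against a Falstaff mean of 2.12 CPM, a ratio of 12.6.

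Of the other protein-coding genes with a high level, LOC111876043 averaged 47.3 ± 12.2 CPM in Luna bionda and 9.25 ± 1.6 CPM in Falstaff. LOC111897498 averaged 33.6 ± 8.65 CPM in Luna bionda and 2.74 ± 1.06 CPM in Falstaff, and LOC111905405 averaged 33.0 ± 14.9 CPM in Luna bionda and 3.66 ± 1.87 CPM in Falstaff. These 3 had ratios of 5.11, 12.2 and 9.02, which shows that level and ratio were not ordered alike. LOC128126742, LOC111893337, LOC111884839 and LOC111904233 had Luna bionda means of 29.7, 25.5, 25.1 and 19.1 CPM, against Falstaff means of 7.11, 5.63, 2.57 and 4.47 CPM. For LOC111904233 the varieties came close, with 8.77 CPM in the lowest Luna bionda library and a gap ratio of 1.02.

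Of the 5 largest ratios, 4 belonged to genes with a Falstaff mean under 1 CPM, and the exception was LOC111897207, described above (24.4 at 2.93 CPM in Falstaff). LOC111876146, protein-coding, had the largest, 35.9, with 2.29, 19.5 and 55.4 CPM in Luna bionda, against 0.0967, 0.507 and 1.91 CPM in Falstaff. Its lowest Falstaff library held 2 reads of it and its highest 52 reads. That highest library, Falstaff UVB 2.5 h replicate 3, weighed on the ratio, which was 56.7 without it. Its Luna bionda values ran over a wide range, and the lowest of them was only 1.2 times the highest Falstaff value.

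The lncRNA LOC111904487 came next with a ratio of 30.2. It read 4.61, 19.4 and 53.2 CPM in Luna bionda, against 0, 0.914 and 1.28 CPM in Falstaff. The lncRNA LOC111909841, at 15.9 ± 12.2 CPM in Luna bionda and 0.667 ± 0.444 CPM in Falstaff, had a ratio of 23.8 and likewise no read in 1 Falstaff library. LOC111908112, protein-coding, averaged 17.5 ± 6.65 CPM in Luna bionda and 0.714 ± 0.322 CPM in Falstaff, a ratio of 24.6. The lncRNA LOC111914682 had a ratio of 15.8 and the second widest gap, with its lowest Luna bionda value 6.29 times its highest Falstaff value.

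Just inside the ratio limit stood LOC111891298 (4.02), LOC128126742 (4.18) and LOC111904233 (4.28). Just outside it, among genes whose varieties did not overlap, stood LOC111912275 (3.9), LOC111886587 (3.7) and LOC111881232 (3.64). LOC111886587 averaged 135 CPM in Luna bionda and 36.4 CPM in Falstaff, a level that only LOC111902826 of the set exceeded. On the side of the overlap, 6 genes of the set had a gap ratio under 1.1 and 20 had one of 2 or more.

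Within a variety the genes differed in how steady they were. The median CV was 38.8% over the 11 Luna bionda libraries and 48.2% over the 7 Falstaff libraries, and 16 of the 40 genes had the larger CV in Luna bionda. For the 20706 genes at 0.5 CPM or more in both varieties the medians were 45.3% in Luna bionda and 34.2% in Falstaff. The rule limits how far a Luna bionda value can scatter towards Falstaff, so these CVs are no finding about the set. LOC111878917, protein-coding, and the lncRNA LOC111914348 were the steadiest in Luna bionda, with CVs of 17.9% and 18.8%. LOC111881622 and LOC111900654, both protein-coding, were the least steady, with CVs of 108% and 105%.

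The spread of LOC111881622 lay in a pair of libraries. It read 86.6 and 66.5 CPM in Luna bionda UVB 2.5 h replicates 2 and 3, the libraries that stand apart, and 7.98 to 31.9 CPM in the other 9. Its Falstaff values were 0.387 to 2.15 CPM, and the rule fixes that the varieties stay separate without those 2 libraries. The ratio of means was 19.7 with all deep libraries and 12 without the 3 that stand apart. The same replicate 2 held the highest value of LOC111900654, 33.6 CPM, against 2.48 to 13.5 CPM in the other Luna bionda libraries and 1.35 to 2.42 CPM in Falstaff.

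For 19 of the 40 genes (47.5%) the lowest Luna bionda value was in UVB 2.5 h replicate 2 or 3. The same held for 51.4% of the 21990 genes, a similar share. In another 7 genes (17.5%) the lowest value was in visible light replicate 1, against 6.57% of the 21990 genes. Neither share was tested. The highest Falstaff value was spread over the libraries, with 4 to 8 genes for each of the 7.

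**Figure D2:**
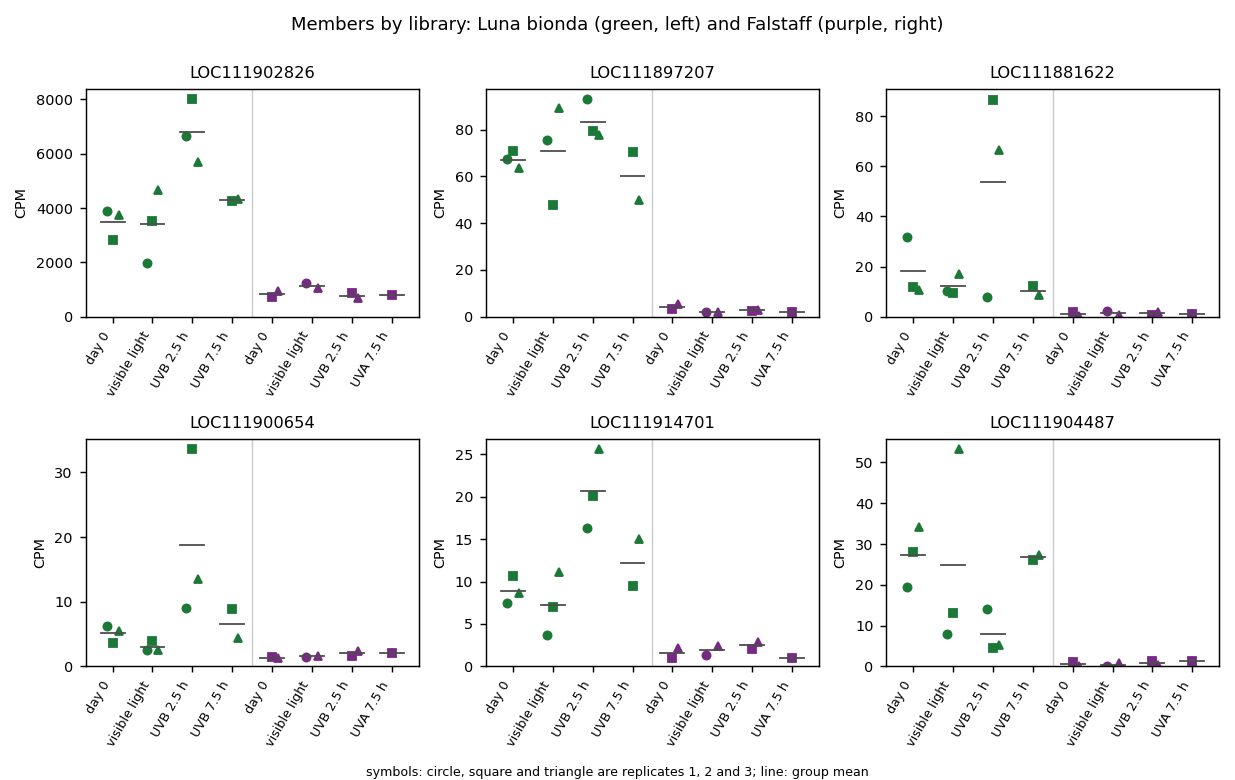
CPM of 6 of the genes in each deep library, with Luna bionda (green) left of Falstaff (purple), symbols for the replicate number and a line at the group mean. LOC111902826 and LOC111914701 were highest in the 3 UVB 2.5 h libraries of Luna bionda, LOC111881622 in only 2 of those, and LOC111904487 was low there, while LOC111897207 was high in each Luna bionda group.

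The varieties share 3 conditions, with 3 deep Luna bionda against 2 deep Falstaff libraries in each. The rule fixes that each ratio lies above 1 in each condition, and the values below describe its size. At day 0 the ratio of means, Luna bionda over Falstaff, ran from 3.66 to 49.9 with a median of 9.31, and 38 of the 40 genes were at 4 or more. Under visible light at day 6 it ran from 1.93 to 54.3 with a median of 10.1, and 33 genes were at 4 or more. Under UVB for 2.5 h it ran from 2.2 to 39.8 with a median of 7.95, and 36 genes were at 4 or more. In all 3 conditions 30 genes kept a ratio of 4 or more, and a ratio under 2 occurred once, for LOC111900654 under visible light.

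The ratio of single genes moved between conditions by more than the median did. LOC111902826 had ratios of 4.14 at day 0, 2.98 under visible light and 8.68 under UVB. LOC111900654 followed the same order with 3.73, 1.93 and 9.28. LOC111881622 had 16.6, 8.98 and 39.8. The lncRNA LOC111904487 ran the other way, with 49.9 at day 0, 54.3 under visible light and 9.75 under UVB. Its visible-light ratio rests in part on Falstaff visible light replicate 1, which had no read of it. Its Luna bionda means were 24.8 ± 24.7 CPM (SD) under visible light and 8.06 ± 5.34 CPM under UVB. LOC111897207, with 15.3, 35.1 and 29.3, and LOC111878917, with 13.9, 14.5 and 14.1, stayed far above the limit in all 3.

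**Figure D3:**
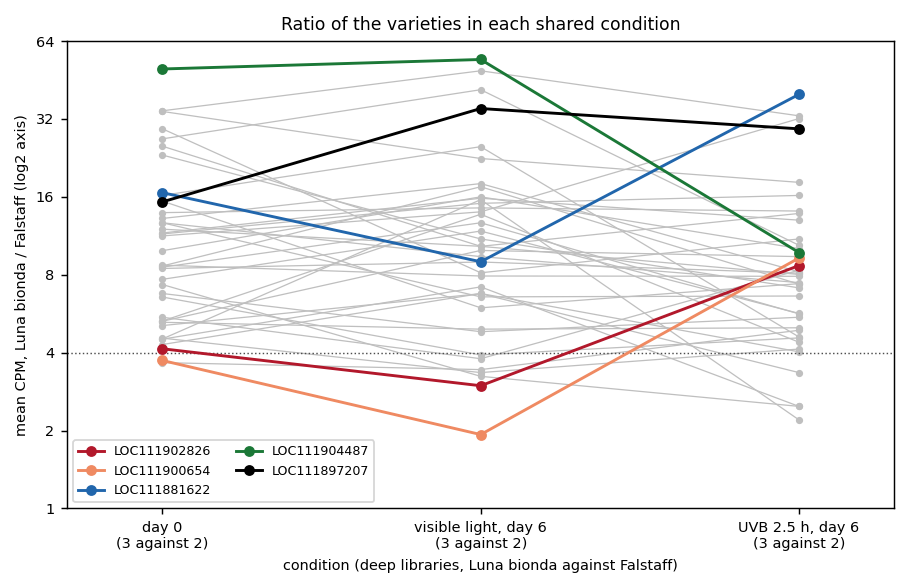
Ratio of the mean CPM, Luna bionda over Falstaff, in each condition that both varieties have (log2 axis), with a line per gene, 5 genes in colour and a dotted line at the limit of 4. The rule fixes that the lines lie above 1. LOC111902826, LOC111900654 and LOC111881622 are highest under UVB for 2.5 h while LOC111904487 is lowest there.

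The rule fixes that any subset of these libraries has ratios above 1, so the next values describe size only. Among libraries of the upper series alone, 7 of each variety, the ratio of means was 2.84 to 36.9 with a median of 9.19, and 36 of the 40 genes stayed at 4 or more. Within Luna bionda, the 4 deep libraries of the lower series over the 7 of the upper series had ratios of 0.504 to 3.08 with a median of 0.812. Without the 3 libraries that stand apart (Luna bionda UVB 2.5 h replicates 2 and 3, and Falstaff visible light replicate 1) the ratio of the varieties was 2.98 to 30.3 with a median of 9.65, and again 36 genes were at 4 or more. The median log2 ratio, Luna bionda over Falstaff, over all genes in both varieties was -0.13. With size-factor or TMM scaling in place of CPM the rule took 44 genes, 35 of them among the 40.

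The 6 shallow libraries were not used by the rule and hold the same measure, with 898111 reads in 1 Luna bionda library (UVB 7.5 h replicate 1) and 3815535 reads over 5 Falstaff libraries. In the Luna bionda library a single read is worth 1.11 CPM, so many of the genes were at the edge of detection. No Falstaff library had UVB for 7.5 h, so variety and that treatment cannot be told apart in these values. Here 29 of the 40 genes (72.5%) had a Luna bionda value above all 5 Falstaff values, against 33.0% of the 21990 genes. A read in the Luna bionda library was present for 35 of the 40 (87.5%), against 77.9% of the 21990 genes. The Luna bionda value was above the pooled Falstaff value for 33 genes (82.5%), against 53.7% of the 21990 genes, and below it for 3. The shares over the 21990 genes were not matched for level, and most of the set was read weakly in Falstaff. The smallest one-sided exact permutation p that 1 library against 5 allows for a single gene is 0.167.

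Reads in these libraries separated some genes widely. LOC111876146 had 103 reads in the Luna bionda library and none in the 5 Falstaff libraries. The lncRNA LOC111882807 had 70 reads against 1, LOC111897207 had 77 against 4, and LOC111914701 had 34 against 0. Other genes were less separate. LOC111878917 read 26.7 CPM in Luna bionda, against 21.2 CPM at most and 8.12 CPM pooled in Falstaff. LOC111905405 read 49 CPM in Luna bionda, against 22.7 CPM at most and 8.39 CPM pooled in Falstaff. The highest deep Falstaff values of these genes were 2.69 and 6.95 CPM. For the lncRNA LOC128127585 the values were 12.2 CPM in Luna bionda and 12.1 CPM at most in Falstaff. LOC111902826 read 2236 CPM in Luna bionda, against 101, 229.8, 285, 463 and 781 CPM in the Falstaff libraries. The summed level of the other 39 genes was 632 CPM in the Luna bionda library, against 51.0 to 86.2 CPM in the Falstaff libraries, both close to the levels of the deep libraries.

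In 11 genes the Luna bionda value was not above all 5 Falstaff values. LOC111884839 had no read in Luna bionda and 8 in Falstaff, the lncRNA LOC111890379 had 2 reads (2.23 CPM) in Luna bionda and 24 in Falstaff, or 2.23 CPM against 6.29 CPM over the pooled Falstaff reads, and LOC111900654 had 2.23 against 2.62 CPM. LOC111908477, LOC111887991, LOC111914348 and LOC111891298 had no read in any of the 6. Counts this low underlie part of both groups: 8 genes had exactly 2 reads in the Luna bionda library, and 3 of them are counted among the 29 above all Falstaff values.

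**Figure D4:**
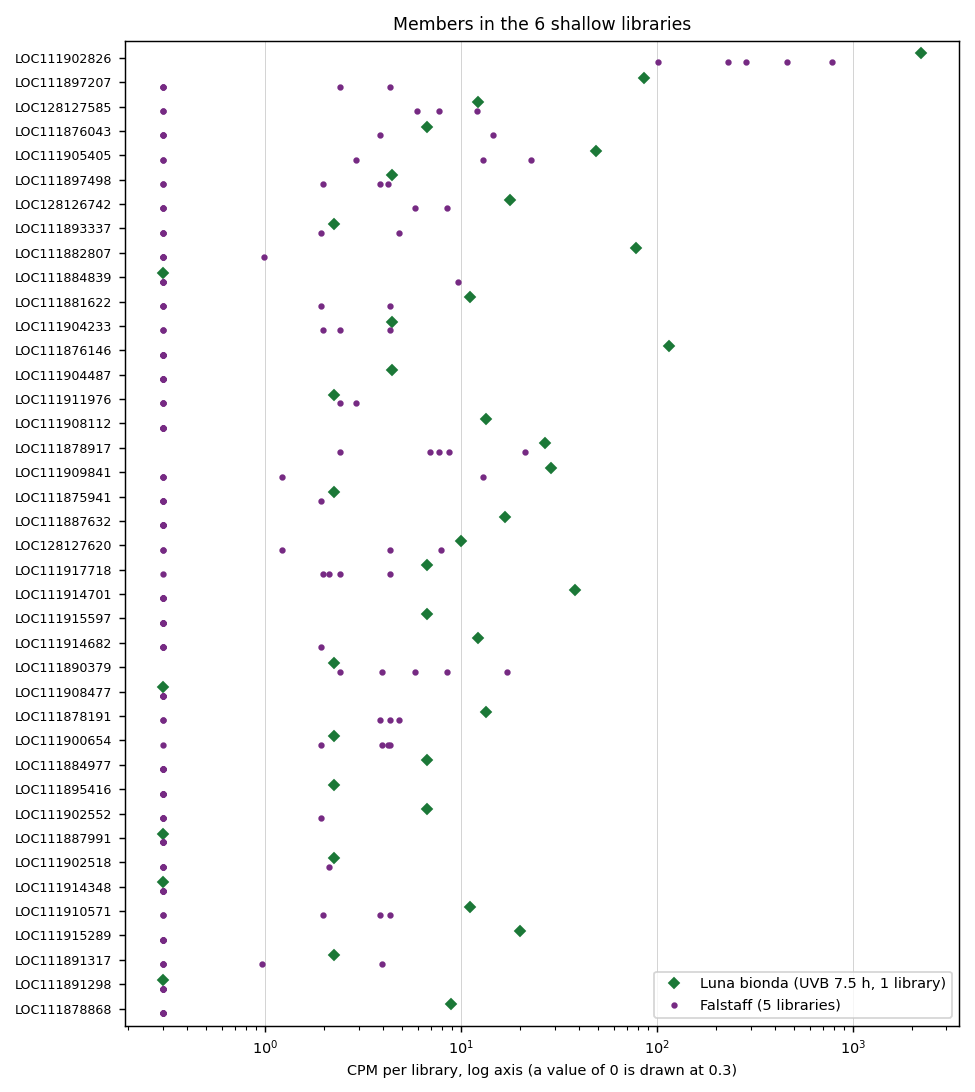
Level of each of the 40 genes in the shallow libraries, with the single Luna bionda library as diamonds and the 5 Falstaff libraries as points, in CPM on a log axis with 0 drawn at 0.3. In 29 genes (72.5%, against 33.0% of the 21990 genes) the diamond lies above all 5 points. No read in any Falstaff library was found for 14 genes, a count not taken over all genes. Most of the set was read weakly in Falstaff, which bears on both counts.

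Fitted across genes with limma on these 6 libraries, after a filter on the mean normalized value (10 or more), 7686 genes were tested and 0 were called at an adjusted p of 0.05, while 522 (6.79%) had an unadjusted p under 0.05. The lone Luna bionda library is assumed in this fit to vary like the Falstaff ones. Only LOC111902826 of the set passed the filter, with a log2 fold change of 2.29 (Luna bionda over Falstaff, SE 0.88, adjusted p = 0.678). In edgeR's quasi-likelihood test 0 genes were called (648 unadjusted), and in DESeq2 102 (1.33%) were called, LOC111902826 not among them. Without the filter limma called 820 of 24212 genes (3.39%) and 11 of 36 tested genes of the set, all higher in Luna bionda. Those calls rest on zeros: 760 of the 820, and 10 of the 11, had no read in any Falstaff library. The remaining gene, LOC111882807 (log2 fold change 5.20), had 1 read in all over the Falstaff libraries, so it too rests mostly on zeros.

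Whether the genes changed under light and UV within each variety was tested next, on the deep libraries, with limma on log2(normalized reads + 1) and Benjamini-Hochberg adjustment over all genes tested. All 40 genes passed the filter in each fit. None was called in any of the 6 comparisons within a variety, nor did limma call any other gene in them. The differences below are log2 fold changes on that scale, which understates changes of low genes, and the rule limits how far a Luna bionda value could fall.

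Luna bionda under UVB for 2.5 h against visible light at day 6 had the most genes of the set at a low unadjusted p. The median over the 40 genes was 0.21 (-1.11 to 2.95), against -0.05 over all genes, with 23 higher and 17 lower under UVB. The percentage called was 0 of 21998 genes tested, and the smallest adjusted p of the set was 0.216. An unadjusted p under 0.05 was found for 12 of the 40 (30.0%), against 3887 of all genes (17.7%). The quasi-likelihood test of edgeR also called 0 genes (3817 unadjusted), while DESeq2 called 1284 (5.84%), 6 of them in the set.

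LOC111900654 had the largest of these differences, with 9.04, 33.6 and 13.5 CPM under UVB, against 2.60, 3.97 and 2.48 CPM under visible light. The groups did not overlap, and the log2 fold change was 2.95 (SE 0.58, limma adjusted p = 0.216; DESeq2 3.29, adjusted p = 3.05e-05). LOC111914701 read 16.3, 20.1 and 25.6 CPM under UVB, against 3.71, 6.98 and 11.1 CPM under visible light, and the groups were again separate (2.14, SE 0.48, limma adjusted p = 0.216; DESeq2 adjusted p = 0.00589). The most abundant gene, LOC111902826, read 6639, 8025 and 5703 CPM under UVB, against 1993, 3522 and 4682 CPM under visible light (1.6, SE 0.59, limma adjusted p = 0.228; DESeq2 adjusted p = 0.0211). For this gene the 3 UVB values were the highest of all 18 deep libraries.

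In CPM, all 3 UVB values lay above all 3 visible-light values for these 3 genes only (7.50% of the set, against 3.06% of the 21990 genes). They lay below for 8 genes (20% of the set, against 19.4%), among them LOC111902518, LOC111908112, LOC111893337 and the lncRNA LOC111882807, a share near that of all genes.

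Further genes with a large difference on the log2 scale overlapped between the groups. LOC111881622 read 7.98, 86.6 and 66.5 CPM under UVB, against 10.2, 9.57 and 17.2 CPM under visible light, so that replicate 1 was below all 3 visible-light libraries (2.12, SE 0.85, limma adjusted p = 0.245). LOC111876146 read 45.7, 55.4 and 19.5 CPM under UVB, against 2.29, 9.29 and 41.6 CPM under visible light, and the groups overlapped (2.45, SE 1.07, limma adjusted p = 0.269). Of the genes that lay lower under UVB with no overlap, LOC111902518 read 4.87, 1.46 and 1.96 CPM under UVB, against 6.10, 10.5 and 6.73 CPM under visible light (-1.11, SE 0.48, limma adjusted p = 0.265). Another was LOC111908112 (-1.0, SE 0.28, limma adjusted p = 0.216; DESeq2 adjusted p = 0.028).

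These differences move with the libraries named above. All 3 UVB 2.5 h libraries of Luna bionda are of the lower tag series and all 3 visible-light libraries of the upper one, so no value within a series could be had. With the series as a term, which rests on day 0 replicate 2, limma called 0 genes (2214 unadjusted), and 2 of the 40 had an unadjusted p under 0.05. Without UVB replicate 1, which was nearest to Luna bionda UVB 7.5 h replicate 2 among all libraries (Spearman 0.966), limma called 3335 genes (15.1%), 6 of them in the set, and without the 3 libraries that stand apart it called 0 (1093 unadjusted), with 4 of the set at an unadjusted p under 0.05. The part of these libraries in the values of the set was not tested further.

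In both other Luna bionda comparisons the range of differences was narrower. Luna bionda under UVB for 7.5 h against visible light had a median of 0.11 (-1.01 to 1.32), with 28 genes higher and 12 lower, and 1 gene of the set (2.50%) at an unadjusted p under 0.05, against 2.48% of all genes. That gene was LOC111915289 (-1.01, SE 0.42, limma adjusted p = 1). The edgeR test called 0 genes (679 unadjusted) and DESeq2 1 (0.00455%), which was not in the set. Luna bionda under visible light at day 6 against day 0 had a median of -0.07 (-0.91 to 0.88), with 1 gene of the set (LOC111897498, -0.61, SE 0.28) at an unadjusted p under 0.05, against 1.47% of all genes. There edgeR called 0 (366 unadjusted) and DESeq2 0 (564 unadjusted).

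Falstaff gave no gene of the set with an unadjusted p under 0.05 in limma. Under UVB for 2.5 h against visible light, 2 libraries each, the median was 0.11 (-1.70 to 1.85), where 8.47% of all genes had an unadjusted p under 0.05. Under UVA for 7.5 h, with a single deep library that is assumed to vary like the others, it was -0.00 (-3.87 to 2.84), where 4.45% of all genes did. At day 6 under visible light against day 0, 2 libraries each, it was 0.29 (-1.31 to 3.07), where 6.91% did. The medians over all genes were -0.01, 0.02 and 0.04. The edgeR test called 0, 1 (0.00440%) and 0 genes in these 3 comparisons (1968, 1071 and 1653 unadjusted), and DESeq2 called 309 (1.36%), 118 (0.519%) and 95 (0.418%), none of them in the set. The median SE of the 40 genes was 0.72, 0.88 and 0.72 in these comparisons, against 0.45 in Luna bionda under UVB for 2.5 h.

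Whether UVB for 2.5 h moved the genes differently in the varieties was tested as an interaction over the 18 deep libraries (the change in Luna bionda minus the change in Falstaff). The median over the set was 0.51 (-2.54 to 2.80), against -0.05 over all genes, with 27 positive and 13 negative. The rule used these same libraries. It limits how far a Luna bionda value could fall, or a Falstaff value rise, under UVB, so this lean is no finding about the set. Of the 22668 genes tested limma called 0, and 4192 (18.5%) had an unadjusted p under 0.05. In the set 6 genes (15%) did, a share below that of all genes. The edgeR test called 0 (4333 unadjusted), and DESeq2 called 1627 (7.18%), of which 2 belonged to the set.

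These were LOC111900654, with 2.80 in limma (SE 0.87, adjusted p = 0.148) and 3.12 in DESeq2 (adjusted p = 0.014), and LOC111902826, with 2.33 in limma (SE 0.79, adjusted p = 0.166) and 2.22 in DESeq2 (adjusted p = 0.0154). In Falstaff, LOC111900654 read 1.61 and 2.42 CPM under UVB, against 1.52 and 1.61 CPM under visible light, and LOC111902826 read 891 and 674 CPM under UVB, against 1232 and 1049 CPM under visible light. LOC111902826 was thus lower under UVB in both Falstaff libraries, while in Luna bionda it was higher in all 3. The Falstaff change of this gene, with 2 libraries in each group, was -0.72 (SE 0.46, limma adjusted p = 0.68). Its 1232 CPM was in Falstaff visible light replicate 1, one of the libraries that stand apart. The tag series differs between UVB and visible light in Luna bionda only. In Falstaff, within the upper series, the UVB libraries also carry lower tag numbers than the visible-light libraries. In the interaction a different answer of the varieties to UVB and the batch tags therefore cannot be told apart. On the negative side LOC111902518 had -2.23 (SE 0.76, limma adjusted p = 0.167) and the lncRNA LOC111882807 -1.80 (SE 0.60, limma adjusted p = 0.161). When UVB replicate 1 of Luna bionda was left out, limma called 2711 genes (11.9%), among them LOC111900654 (3.32, adjusted p = 0.0194) and LOC111902518 (-2.63, adjusted p = 0.0354). Without the 3 libraries that stand apart it called 0 (2443 unadjusted).

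**Figure D5:**
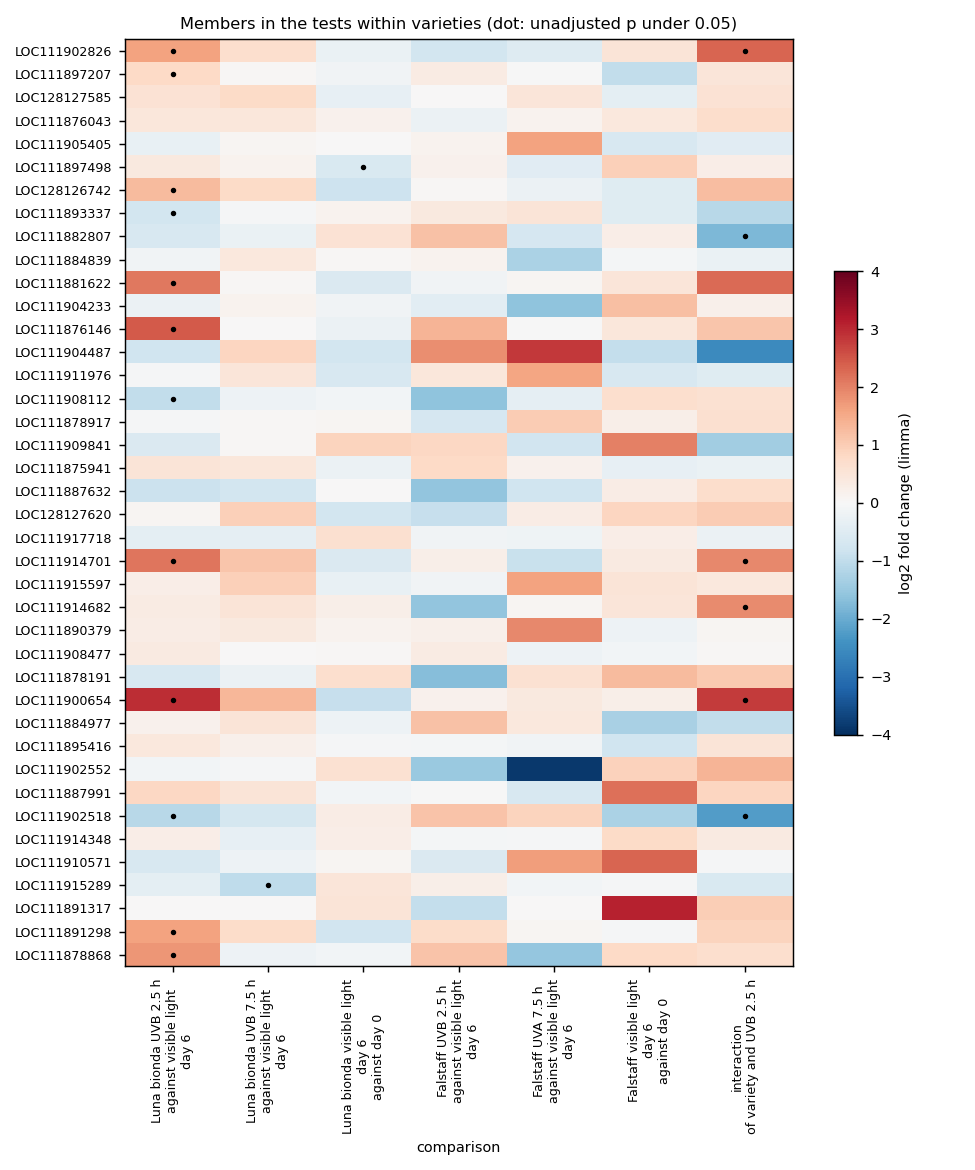
Log2 fold changes of the 40 genes (rows, ordered by mean level) in the 6 comparisons within varieties and the interaction (columns), from limma on log2(normalized reads + 1), with red for higher in the first-named condition and a dot where the unadjusted p is under 0.05. Dots mark 12 of the 40 genes in the first column, where 17.7% of all genes had an unadjusted p under 0.05. In the last column they mark 6 of the 40 genes, a share below the 18.5% of all genes. The 3 Falstaff columns have none.

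The genes did not follow 1 common course across the Luna bionda libraries. Over the 780 pairs, Spearman's rho across the 11 deep Luna bionda libraries had a median of 0.06 and ran from -0.93 to 0.91. The most alike were LOC111902518 and LOC111910571 (0.91), LOC111904487 and LOC128127620 (0.88), and LOC111902826 and LOC111914701 (0.86). The least alike were LOC111878868 and LOC128127620 (-0.93). These are descriptions over 11 libraries that share 2 which stand apart, and CPM ties the genes of a library to its most abundant transcripts.

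In the order of the RefSeq annotation no 2 of the 40 genes were neighbours. The closest were LOC128127620 and LOC128127585, with 5 entries between them, and LOC111887632 and LOC111902518, with 9. The next genes on either side that were at 0.5 CPM or more in both varieties and outside the set numbered 56. Their median log2 ratio of the varieties was -0.04, against -0.13 over all genes in both varieties. A ratio of 2 or more was found for 8 of the 56 (14.3%), against 3.52% of the 20666 genes in both varieties outside the set, and a ratio of 0.5 or less for 5 (8.93%), against 6.62%. None of the 56 was higher in Luna bionda with no overlap (0.0823% of the 20666 genes were), and 2 were lower with no overlap (3.57%, against 1.05%). One of these, LOC111910572 beside LOC111910571, had the most extreme ratio, 0.104, with 1.73 ± 0.702 CPM in Luna bionda (0.849 to 3.09) and 16.7 ± 3.52 CPM in Falstaff (11.5 to 21). The other was LOC111878186, with 3.03 ± 1.07 CPM in Luna bionda and 11 ± 2.16 CPM in Falstaff. LOC122194910, beside the abundant LOC111902826, had the largest ratio in the direction of the set, 4.69. It averaged 278 ± 147 CPM in Luna bionda (113 to 546) and 59.3 ± 62 CPM in Falstaff (20 to 198), and the varieties overlapped.

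The authors' deposited table that compares the varieties covers 6 libraries, 4 of those used by the rule and 2 shallow ones. By the labels, its shallow Luna bionda library had UVB for 7.5 h and all its other libraries visible light. Its values correlated at -0.73 with the log2 ratio, Luna bionda over Falstaff, of its 4 deep libraries. They were therefore read as Falstaff over Luna bionda, so that a negative value is higher in Luna bionda. In the authors' deposited table all 40 genes were negative, with log2 fold changes from -7.33 to -1.18 and a median of -3.11, against 0.06 over all genes. Past an adjusted p of 0.05 in the authors' deposited table were 20 of the 40, where 477 of 24396 genes were (1.96%). The lowest value there was that of LOC111876146 (-7.33), and the highest that of LOC111900654 (-1.18). Since 4 of its libraries chose the set, this is a description.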

How the data were processed

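RNA from lettuce leaves was sequenced in 24 libraries, 3 in each of 8 groups taken from the sample labels. The tools STAR and featureCounts 1.6.3 are named per the submitters' processing notes. Not given in the sources used here are the build, the annotation, the strand setting and the handling of multi-mapping reads, so genes with near-identical copies are uncertain. The authors deposited the normalized signal of each gene in 7 tables of 6 libraries, and beside each table a log2 fold change and a p-value per gene. Columns were matched by batch tag, and 0 columns belonged to no sample. Whole reads were recovered from the deposited signal (100.0% of values whole at a relative tolerance of 0.001) and joined into 31499 genes, of which 30914 matched RefSeq. Levels are CPM of these reads.

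The members and lists were chosen with earlier results of these data known. Tests used limma 3.58.1 (R 4.3.3), allowing for an intensity trend, on log2(reads / median-of-ratios size factor + 1), a mean normalized value of at least 10, and Benjamini-Hochberg adjustment over all genes tested at 0.05. All deep libraries of a variety shared an estimate of the spread, and the scripts were tested on simulated data. Alternatives were TMM, pseudocounts of 0.5 and 5, no filter, edgeR 4.0.16, DESeq2 1.42.0, a replicate block, a tag-series term, all libraries, only the compared groups, and leaving out each library. The named genes were the 12 most abundant, the 8 with the largest ratio, the 3 on each side of the limit, those called in any test, the least and most variable, and the extremes of each measure, the last 2 kinds chosen after their values were seen. Sequences, protein signatures and promoter motifs were not used here.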

Additional observations from a re-analysis of the deposited data

How the results depend on the processing

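The rule took 23 genes at a ratio of 8, 171 without the demand of no overlap, 17 with all 24 libraries (14 of them among the 40), 89 in the upper tag series (36 shared) and 80 without the 3 libraries that stand apart (36 shared). It took 55 genes at a ratio of 2, 27 at a Falstaff mean of 1 CPM, and 39 to 50 when each deep library was left out. For 18 named genes, 9 of 414 recomputed ratios moved by over 1.5 times (4 by more than 1 SD of the Luna bionda log2 values). With all 24 libraries LOC111876146 went to 83.9, LOC111904487 to 48.4, LOC111908112 to 41.3, LOC111882807 to 23.5 and LOC111909841 to 10.8. In the upper tag series LOC111904487 (36.9) passed LOC111876146 (26.2), and LOC111881622 was at 11.3. LOC111900654, not among the 18, was at 2.84 in the upper series and at 2.98 without the 3 libraries. Gene counts called at an adjusted p of 0.05, 0 in limma as run in the report, were as follows elsewhere. In the shallow libraries a pseudocount of 0.5 gave 6, no filter 820 (11 of the set) and DESeq2 102. DESeq2 gave 1284 (6 of the set) for Luna bionda under UVB 2.5 h, 1 under UVB 7.5 h, 309 for Falstaff under UVB, 118 under UVA, 95 for Falstaff day 6 against day 0 and 1627 (2 of the set) for the interaction. For Falstaff under UVA, edgeR gave 1. For the interaction, no filter gave 17 and a tag-series term 2. Leaving out each library gave 0 to 3335 for Luna bionda under UVB 2.5 h (0 to 6 of the set; the highest without UVB replicate 1). The interaction gave 0 to 2711 (0 to 2 of the set; the highest without the same library), and 101 without Falstaff visible light replicate 3. Without that replicate, Falstaff under UVB gave 540 (lowest 0), under UVA 104 (lowest 0) and day 6 against day 0 gave 353 (lowest 0), with 0 of the set each. The cause of these changes was not tested.

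Same-numbered libraries correlated at -0.528 to 0.206 in their deviations from group means. Deviations within such small groups are tied to each other, and libraries of different numbers were not compared. Whether the numbers pair the libraries was therefore not settled. With a replicate block, Falstaff under UVB gave 7 genes, 0 of the set, and no other count of calls changed. Leaving out the lone shallow Luna bionda library or the lone deep UVA library leaves no comparison and was not run. Depth limits the shallow libraries, where a read is worth 1.11 CPM in Luna bionda.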
